A study of Mus musculus with 9 samples.

Results

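The group means of 170 transcripts of 152 genes lay below control 3 h after intestinal manipulation and above control 24 h after it. These transcripts were selected on the 3 group means of the deposited table of changed genes, as those whose mean at IM3h lay below the control mean and whose mean at IM24h lay above it. The table holds 502 transcripts of 444 gene symbols, 179 of which take this order, and 9 of them carry names that the selection left out, among them Csf1r, Mmp9, Nexn and Cdk1. Both deposited tables together hold 634 transcripts. Because the order itself chose the members, the fall and the rise are given here as a description and no test is attached to them.

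The libraries came from the muscularis externa, the muscle coat of the gut wall, of the small intestine of BL6 mice, 8-12 weeks old by the labels. The groups are 3 libraries taken 3 h after intestinal manipulation (IM3h), 3 libraries taken 24 h after it (IM24h), and 3 control libraries, which the labels call sham operated while the column headers call them naive. No transgene, knockout or drug is given for any group. Libraries were made with a 3' mRNA-Seq kit, which reads the end of each transcript. The labels give library numbers that begin with 107 for all 3 IM3h libraries and with 106 for all IM24h and control libraries. What this numbering stands for is not given. In every value below that sets IM3h against another group, the effect of time and any effect tied to this numbering cannot be told apart.

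Intestinal manipulation is the standard mouse model of postoperative ileus, in which gentle handling of the bowel sets off inflammation of its muscle layer. Early mediators are released by resident macrophages, enteric glia and muscle, and blood monocytes and neutrophils then enter the tissue. The muscle coat also holds neurons, glia, blood vessels, fibroblasts and interstitial cells, and a bulk library sums over all of them. Fewer cells of a type and less RNA per cell therefore cannot be told apart in these values.

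Every value is a mean of normalized counts over the libraries of a group, as the authors deposited it, with no spread between libraries, so no error can be set beside it. The total of a transcript equalled 3 times the sum of its 3 group means and so covers all 9 libraries. All 502 transcripts differed at least 2-fold between each pair of groups, so a transcript with a smaller fall or rise could not become a member. Values were low. Totals of the members ran from 12.1 to 245.3 with a median of 35.9, against a median of 62.4 for the rest of the table. The IM3h mean was below 1 normalized count in 79 of the 170 members and in 16 of the 332 other transcripts.

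The median member mean was 1.09 at IM3h and 8.00 at IM24h, against 2.89 in controls. The median log2 ratio was -1.23 for IM3h over control, 1.25 for IM24h over control and 2.59 for IM24h over IM3h. Over the whole table the same medians were 1.09, 1.38 and 1.81. A fall of at least 4-fold at IM3h was seen in 11 members, 6.47% of them, beside 6.97% of the table. A rise of at least 4-fold at IM24h was seen in 17 members, which is 10% of them, beside 36.5% of the table. A mean at least 8-fold higher at IM24h than at IM3h was seen in 43 members, 25.3%, beside 11.4% of the table. The selection used all of these contrasts, so nothing is read from these shares. Of the 91 members with an IM3h mean of at least 1, none fell 4-fold, 2 rose 4-fold and 8 differed 8-fold between IM24h and IM3h. A 4-fold fall from a control mean of a few counts itself brings the IM3h mean below 1, so this split is not independent of the fall. The same counts over the whole table were not made for this split.

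**Figure D1:**
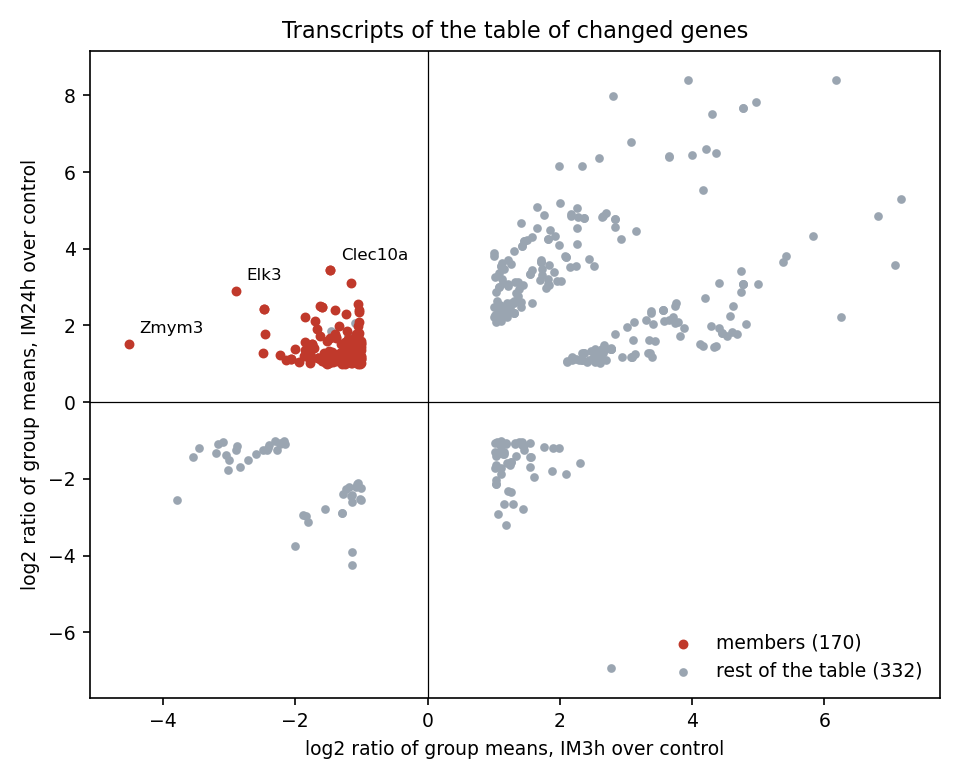
Each point is a transcript, placed by its log2 ratio of group means for IM3h over control (x axis) and IM24h over control (y axis). The 170 members (red) lie at the upper left and sit close to the center, with medians of -1.23 and 1.25, and the 332 other transcripts (grey) include the 9 left-out names that lie among them. The empty bands around 0 show that the table holds only transcripts at least 2-fold apart.

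The fall was larger than the rise in 77 members and the rise larger in 93. That split rests on how the groups are scaled. When the group means were divided by the median ratio in the gliosis table, 1.31 at IM3h and 1.96 at IM24h (log2 shifts of 0.39 and 0.97), 166 members had the larger fall. The order itself could not change, since every member lay further from control than these shifts. On that scale 34 members were at least 4-fold lower at IM3h and 3 at least 4-fold higher at IM24h. The same shares over the whole table were not counted on that scale, so nothing is read from these counts. The gliosis genes were themselves picked by the study and are no neutral standard.

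The members with the largest totals, for which most reads stand behind a value, belong to several cell functions. Arhgef18, a guanine nucleotide exchange factor, averaged 10.7 normalized counts at IM3h and 49.7 at IM24h, against 21.5 in controls. Gpam, which starts glycerolipid synthesis in mitochondria, averaged 11.1 at IM3h and 47.3 at IM24h, against 22.7 in controls. Ptp4a3, a prenylated tyrosine phosphatase, averaged 9.51 at IM3h and 42.9 at IM24h, against 21.01 in controls. All 3 differed from control by 2.01 to 2.32-fold at both times, near the least the table allows. Ccdc34, a coiled-coil protein, averaged 9.22 at IM3h and 37.7 at IM24h, against 18.6 in controls, and was likewise near both limits. Among the 19 members with a total of at least 90, none was 4-fold lower at IM3h or 4-fold higher at IM24h. The largest rise among them was that of Unc93b1, 3.96-fold.

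Elk3 had both the largest fall and the largest rise among members with a total of at least 45. This ETS-family factor, expressed in endothelium among other cells, averaged 0.400 normalized counts at IM3h and 22.2 at IM24h, against 2.97 in controls. It was 7.42-fold lower at IM3h and 7.48-fold higher at IM24h, and its IM24h mean was 55.5 times its IM3h mean. Elk3 and both transcripts of Nme7, a nucleoside diphosphate kinase family protein of microtubules and cilia, were the 3 member transcripts past 4-fold in both directions. Nme7 averaged 0.269 at IM3h and 8.08 at IM24h, against 1.49 in controls. Both genes had under 1 normalized count at IM3h, where a fold depends on very few reads.

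**Figure D2:**
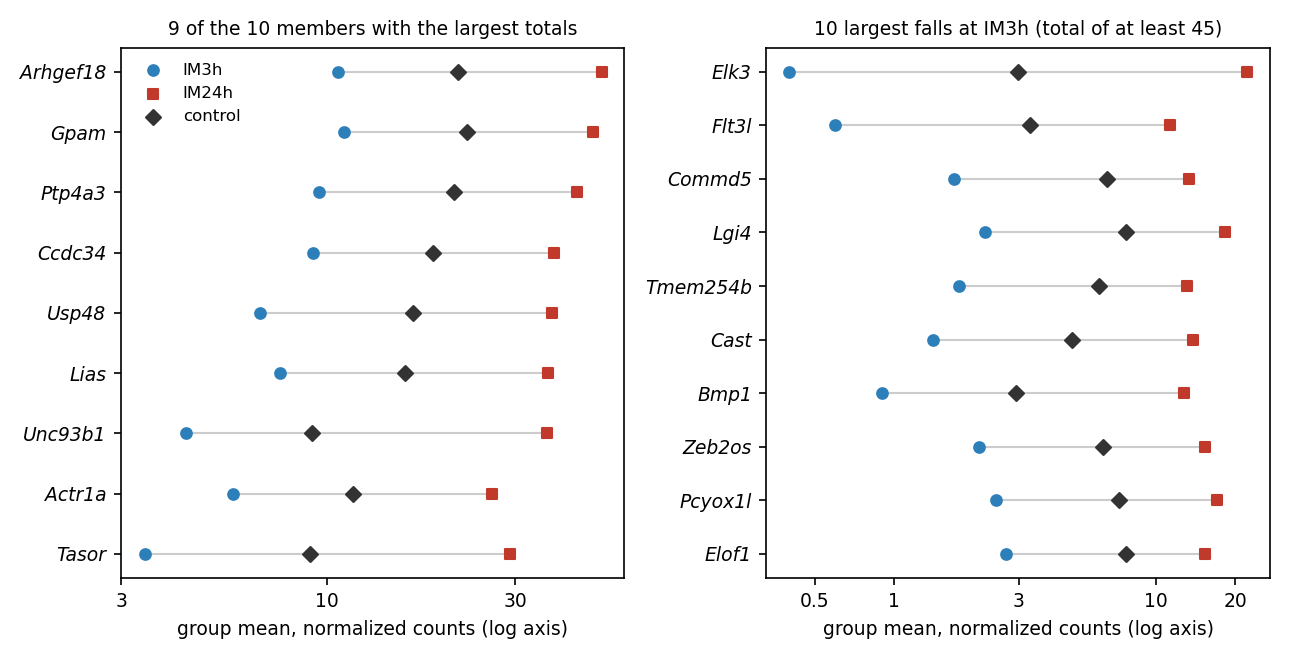
Group means in normalized counts (log axis) at IM3h (circles), at IM24h (squares) and in controls (diamonds) for 9 of the 10 members with the largest totals (left) and the 10 with the largest falls at IM3h among members with a total of at least 45 (right). On the left the means at IM3h lie between 3.46 and 11.1; on the right Elk3 and Flt3l lie below 0.6 at IM3h and at 22.2 and 11.3 at IM24h. The deposited means carry no error bars.

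Genes given an immune role were 17 member genes with 19 transcripts. Their median log2 ratio for IM24h over control was 1.61, a 3.05-fold rise, beside 1.25 over all members and 1.38 over the whole table. Roles were given to members only, with results of these data known, so nothing is read from this median. Unc93b1, which carries nucleic acid sensing Toll-like receptors to the endosome, averaged 4.39 at IM3h and 36.2 at IM24h, against 9.14 in controls. Csk, the kinase that silences Src family kinases, averaged 5.16 at IM3h and 24.7 at IM24h, against 10.8 in controls. C1rl, a serine protease like complement C1r, averaged 3.41 at IM3h and 15.2 at IM24h, against 7.56 in controls. Unc93b1 rose most of these 3 over control. Twf2, an actin-binding protein, averaged 1.39 at IM3h and 12.3 at IM24h, against 3.89 in controls. Flt3l, the growth factor of dendritic cell precursors, averaged 0.598 at IM3h and 11.3 at IM24h, against 3.30 in controls, but the accession listed for it is a noncoding transcript. The steepest rise over control was that of Clec10a, a galactose-binding lectin of macrophages and dendritic cells, with 0.331 at IM3h and 9.92 at IM24h, against 0.917 in controls, a 10.8-fold rise. Its second transcript, with 0.300 at IM3h and 8.99 at IM24h, against 0.831 in controls, gave the same ratios.

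Fgd2, an exchange factor of antigen-presenting cells, was 5.57-fold higher at IM24h, with 0.344 at IM3h and 5.80 at IM24h, against 1.04 in controls. Apobec3, a cytidine deaminase that restricts retroviruses, was 5.64-fold higher, with 0.432 at IM3h and 7.504 at IM24h, against 1.33 in controls. Lair1, an inhibitory receptor for collagen, had 0.949 at IM3h and 9.54 at IM24h, against 2.40 in controls. Ffar2, a receptor for short-chain fatty acids found on neutrophils, had 0.381 at IM3h and 3.35 at IM24h, against 1.10 in controls. These 4 means at IM3h were all below 1. P2ry14, a receptor for UDP sugars, was the only gene of 26 purinergic receptors and ectonucleotidases found in either table, with 1.04 at IM3h and 6.07 at IM24h, against 2.71 in controls. Sh3bp1, Il16, Gab3, Il17b, Lyl1 and Trim5 complete the group.

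Genes of dividing cells supplied 8 members. Ncapd2, a condensin subunit, averaged 2.82 normalized counts at IM3h and 15.4 at IM24h, against 6.23 in controls. Lrwd1, which binds the origin recognition complex, averaged 1.91 at IM3h and 11.4 at IM24h, against 4.59 in controls. Incenp, the scaffold of the chromosomal passenger complex, averaged 1.75 at IM3h and 8.63 at IM24h, against 3.72 in controls. Cad, which starts pyrimidine synthesis, averaged 1.07 at IM3h and 7.47 at IM24h, against 2.21 in controls, and its second transcript had the same ratios. The largest rise of the group was the 5.26-fold one of Tk1, the thymidine kinase of S phase, with 0.430 at IM3h and 5.94 at IM24h, against 1.13 in controls. Ckap2l, Cenpw and Haus5, proteins of the spindle and the centromere, had totals below 16. In a list of 40 cell division genes, 11 were found in either table and 9 of them took this order, 7 as members, beside 35.7% of all transcripts in the table of changed genes and 21.9% in the gliosis table. The list was made with results of these data known. The other pair, Birc5 and Ccna2, was above control at both times.

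Of the genes for DNA repair, Tdp1, which frees trapped topoisomerase I, averaged 1.39 at IM3h and 6.66 at IM24h, against 3.32 in controls. Neil1, a DNA glycosylase, averaged 0.702 at IM3h and 7.20 at IM24h, against 2.17 in controls. The helicase Recql5 averaged 0.991 at IM3h and 5.06 at IM24h, against 2.36 in controls. Neil1 had the largest fall and the largest rise of the 5 repair genes. Poli, a translesion polymerase, averaged 0.588 at IM3h and 3.52 at IM24h, against 1.49 in controls. Eme2, a partner of the Mus81 nuclease, averaged 0.457 at IM3h and 3.26 at IM24h, against 1.28 in controls.

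Of the glial genes, Lgi4, a secreted protein that Schwann cells need for myelination, averaged 2.24 at IM3h and 18.4 at IM24h, against 7.71 in controls. Lgi4 was 3.45-fold lower at IM3h and 2.39-fold higher at IM24h. Gfap and Nes, also in the list of glial markers, did not take this order. Gfap, the filament protein of reactive glia, averaged 11.3 at IM3h and 25.2 at IM24h, against 2.79 in controls, and Nes averaged 28.5 at IM3h and 17.9 at IM24h, against 5.31 in controls. Both were above control at both times. No member gene was listed in the gliosis table. Few symbols are in both tables, which hold 444 and 109 gene symbols apart and 531 together. Col5a2, which took the members' order in both, was left out by name. Nothing is read from the lack of overlap.

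Besides Elk3, the vessel genes were Egfl7, which endothelial cells secrete, with 1.74 at IM3h and 12.5 at IM24h, against 3.56 in controls, and Ramp2, the partner of the adrenomedullin receptor, with 1.62 at IM3h and 9.02 at IM24h, against 4.35 in controls. Elk3, Egfl7 and Ramp2 were 3 of the 4 endothelial markers found out of 19, in a list made with results of these data known. Ets1, the fourth, was lowest at IM24h. The members' order was taken by 35.7% of all transcripts in the table of changed genes and 21.9% in the gliosis table.

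Matrix and secreted proteins had the deepest median fall of any role group, 3.15-fold over 9 transcripts of 7 genes. The median was the same with 1 value per gene. This ranking did not hold with 1 added to each group mean (a pseudocount), when the vessel genes had a deeper median fall. The IM3h means of Bmp1, Adamts10, C1qtnf6 and Plac9a were below 1. Matn2, an adaptor protein of matrix fibrils, averaged 2.73 at IM3h and 18.2 at IM24h, against 6.12 in controls. Vwa1, a von Willebrand domain protein of basement membranes, averaged 2.27 at IM3h and 12.4 at IM24h, against 5.02 in controls. Bmp1, the procollagen C-proteinase, averaged 0.903 at IM3h and 12.8 at IM24h, against 2.93 in controls. Bmp1 rose the most, 4.36-fold. Pcdhgb4, a clustered protocadherin placed in this group though it is a cell surface protein, averaged 1.31 at IM3h and 8.77 at IM24h, against 4.01 in controls. Adamts10, a metalloprotease tied to fibrillin, averaged 0.379 at IM3h and 5.19 at IM24h, against 2.13 in controls, a 5.62-fold fall. C1qtnf6 averaged 0.367 at IM3h and 3.83 at IM24h, against 1.47 in controls. Plac9a, a small secreted protein, averaged 0.580 at IM3h and 4.03 at IM24h, against 1.83 in controls.

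**Figure D3:**
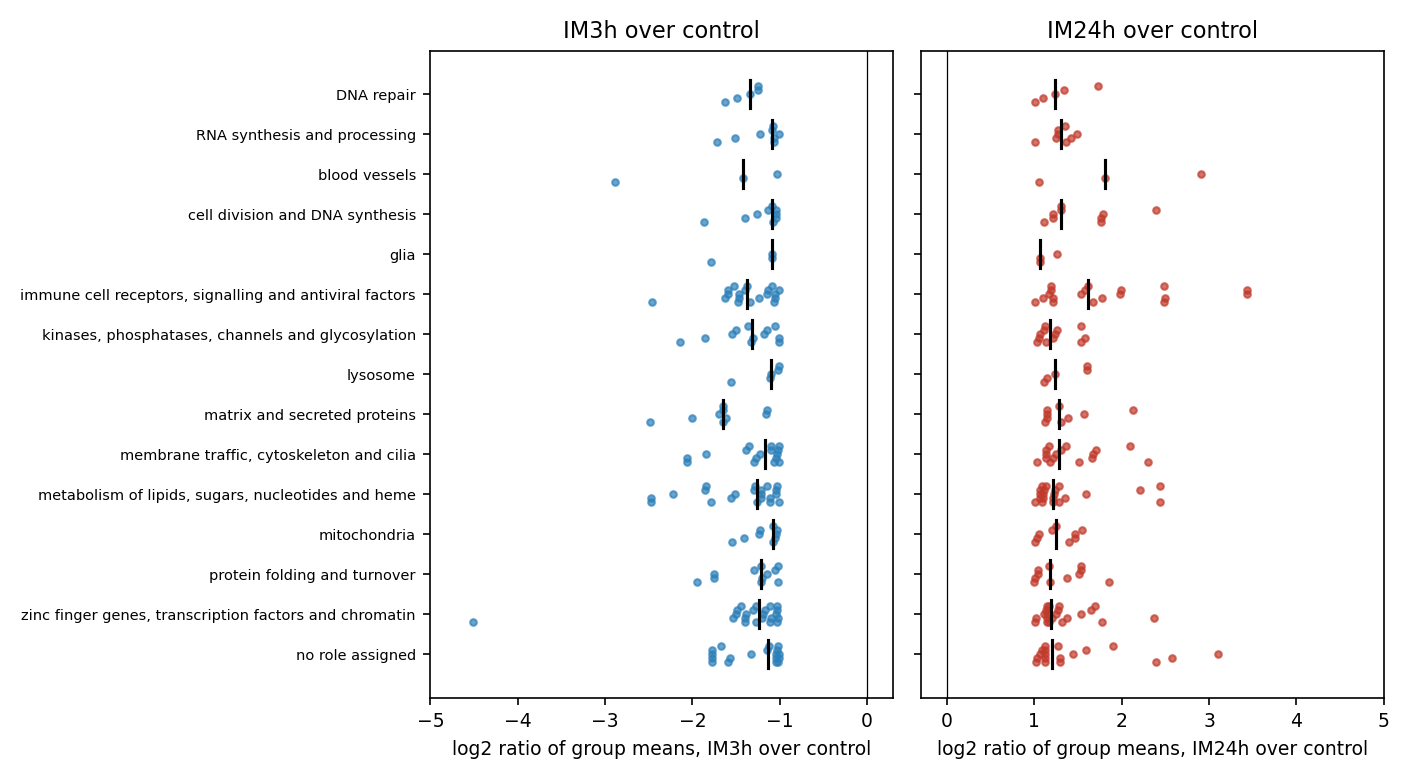
Each point is a member transcript, placed by its log2 ratio of group means for IM3h over control (left) and IM24h over control (right), with the 14 role groups and the genes without an assigned role in rows and a black bar at each group's median. The medians lie between -1.66 (matrix and secreted proteins) and -1.08 (mitochondria) at IM3h, and, in groups of at least 3 genes, between 1.18 (kinases, phosphatases, channels and glycosylation) and 1.81 (blood vessels) at IM24h; point height within a row carries no value.

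Transcription and chromatin genes numbered 19, and their median fall was 2.36-fold. Tasor, the core of the HUSH silencing complex, averaged 3.46 at IM3h and 29.1 at IM24h, against 9.03 in controls. Smarcb1, a SWI/SNF subunit, averaged 5.31 at IM3h and 24.0 at IM24h, against 10.9 in controls, with the same ratios in its second transcript. Zfp638, a zinc finger protein of adipocyte differentiation, averaged 3.56 at IM3h and 17.3 at IM24h, against 7.69 in controls. Tasor rose more than the other two over control. Mxi1, an antagonist of Myc, averaged 2.36 at IM3h and 13.5 at IM24h, against 6.67 in controls. Ing4, a reader of methylated histone H3, averaged 2.82 at IM3h and 13.3 at IM24h, against 6.08 in controls. Zmym3 had the largest fall of all members, 22.9-fold, but its mean was 0.0983 at IM3h and 6.48 at IM24h, against 2.25 in controls, so the 3 IM3h libraries together held less than 1 normalized count. Tle6, a Groucho family corepressor, was 5.15-fold higher at IM24h, with 0.638 at IM3h and 6.73 at IM24h, against 1.31 in controls, and its neighbor Tle2 was also a member. Zfp120, Zfp386, Zfp950, Zfp932, Zfp984, Zfp979, Zfp692, Zfp14, Zmat1, Mrgbp and the pseudogene Znf41-ps complete the group. Zfp120 averaged 1.96 at IM3h and 10.5 at IM24h, against 4.75 in controls, and the leading transcript of Zfp386 averaged 1.43 at IM3h and 7.76 at IM24h, against 3.20 in controls, while its other transcript averaged 0.606 at IM3h and 3.66 at IM24h, against 1.59 in controls.

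Several of these proteins carry runs of C2H2 zinc fingers, DNA-binding modules that the KRAB repressor family shares with other factors. KRAB domains were not searched for. In GENCODE M21 coding sequences, 9 of 146 member genes (6.16%, 95% interval 3.28 to 11.3%) encode 3 or more such fingers. The rest of the table had 6 of 280 (2.14%, 0.986 to 4.6%), and all coding genes 2.84%. The intervals of members and rest overlap, and the difference was not tested. The 9 are Zfp950 with 17 fingers, Zfp932 with 15, Zfp14 with 13, Zfp984 with 11, Zfp120, Zfp386 and AI987944 with 9 each, Zfp692 with 5 and Zfp979 with 3. The rest of the table held Egr1, Klf10 and Snai1 among its 6. AI987944, which was given no role, averaged 1.75 at IM3h and 19.0 at IM24h, against 3.61 in controls.

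Among 7 genes of RNA synthesis and processing, the Integrator subunit Ints4 averaged 3.26 at IM3h and 16.4 at IM24h, against 6.82 in controls, and a second transcript gave the same ratios. Elof1, an elongation factor of RNA polymerase II, averaged 2.68 at IM3h and 15.3 at IM24h, against 7.65 in controls. Exosc5, a subunit of the RNA exosome, averaged 2.64 at IM3h and 15.7 at IM24h, against 5.61 in controls. The fall of Elof1 was the larger and its rise the smaller of these 3. Trpt1, a tRNA phosphotransferase listed by a noncoding transcript, averaged 1.60 at IM3h and 8.28 at IM24h, against 3.22 in controls. Scnm1, a splicing factor, averaged 0.859 at IM3h and 7.54 at IM24h, against 2.83 in controls. Angel2 and Zcchc4 had totals of 17 and 12.2.

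Protein folding and turnover contributed 9 genes. Usp48, a deubiquitinase, averaged 6.75 at IM3h and 37.1 at IM24h, against 16.5 in controls. Klhl5, a Kelch protein, averaged 3.67 at IM3h and 15.3 at IM24h, against 7.62 in controls, and its 2.001-fold rise was the smallest of all members. Commd5, a COMM domain protein, averaged 1.69 at IM3h and 13.4 at IM24h, against 6.51 in controls. Commd5 fell 3.85-fold, the third largest fall among members with a total of at least 45. Cast, the calpain inhibitor, was listed by 3 transcripts, the first with 1.42 at IM3h and 13.8 at IM24h, against 4.77 in controls, and the last with 0.704 at IM3h and 5.95 at IM24h, against 1.64 in controls. Psmd10, a proteasome assembly chaperone, averaged 2.36 at IM3h and 9.83 at IM24h, against 4.79 in controls. Pdia5, Fbxl2, Fbxo6 and Cops7a were the other genes of the group.

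Membrane traffic, cytoskeleton and cilia made up 15 genes. After Arhgef18, Actr1a, the dynactin actin-related protein, averaged 5.77 at IM3h and 26.2 at IM24h, against 11.7 in controls. Spg21, the maspardin of endosomes, averaged 2.46 at IM3h and 12.0 at IM24h, against 5.30 in controls. Tbc1d14, a regulator of autophagy, averaged 1.51 at IM3h and 13.3 at IM24h, against 3.11 in controls. Tbc1d14 rose 4.28-fold. Arl4a, a small GTPase, averaged 1.37 at IM3h and 11.4 at IM24h, against 3.59 in controls. Aaas, a nuclear pore protein, averaged 1.56 at IM3h and 10.4 at IM24h, against 3.27 in controls. Arfgap3, which acts on Golgi coats, was 4.16-fold lower at IM3h in both its transcripts, the leading one with 0.563 at IM3h and 5.15 at IM24h, against 2.34 in controls. Smap1 was 4.94-fold higher at IM24h, with 0.693 at IM3h and 8.03 at IM24h, against 1.63 in controls. Kif3a, Ccdc88a, Exoc1, Pard6a, Tvp23a, Vapa and Zfyve19 were the others.

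Lysosomal and related genes numbered 5. Rab29, a GTPase that recruits LRRK2, averaged 5.07 at IM3h and 23.5 at IM24h, against 10.9 in controls. Pla2g15, the lysosomal phospholipase, averaged 3.09 at IM3h and 20.3 at IM24h, against 6.68 in controls. Pcyox1l averaged 2.46 at IM3h and 17.1 at IM24h, against 7.21 in controls. Pcyox1l had the largest fall of the group and lies next to the member Il17b. The galactosidase-like Glb1l averaged 1.07 at IM3h and 6.53 at IM24h, against 2.15 in controls, and the glucuronidase Gusb averaged 0.857 at IM3h and 3.85 at IM24h, against 1.74 in controls.

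Mitochondrial genes numbered 9, and their median fall was 2.11-fold. Lias, which makes lipoic acid, averaged 7.603 at IM3h and 36.3 at IM24h, against 15.8 in controls. Atpsckmt, a methyltransferase acting on ATP synthase, averaged 3.43 at IM3h and 14.2 at IM24h, against 7.03 in controls. Mrpl40, a mitochondrial ribosomal protein, averaged 3.15 at IM3h and 13.6 at IM24h, against 6.64 in controls. All 3 changed little more than 2-fold either way. Sfxn5, a sideroflexin, averaged 1.15 at IM3h and 7.27 at IM24h, against 3.06 in controls. Tamm41, which makes CDP-diacylglycerol for cardiolipin, averaged 1.15 at IM3h and 7.12 at IM24h, against 2.70 in controls. Fdxr, Mterf4, Tars2 and Atp23 were the others.

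Metabolic genes numbered 19. Pyroxd1, an oxidoreductase, averaged 4.205 at IM3h and 18.7 at IM24h, against 8.68 in controls. Aifm2, the ferroptosis suppressor FSP1, averaged 2.27 at IM3h and 11.7 at IM24h, against 5.53 in controls. Erg28, a scaffold of sterol synthesis, averaged 2.01 at IM3h and 11.4 at IM24h, against 4.68 in controls, and its second transcript gave the same ratios. These 3 rose 2.12 to 2.43-fold. Ddah2 averaged 2.22 at IM3h and 9.80 at IM24h, against 4.46 in controls. Nagk, the N-acetylglucosamine kinase, was 4.63-fold higher at IM24h, with 0.589 at IM3h and 9.80 at IM24h, against 2.12 in controls. Aasdh was 4.68-fold lower at IM3h, with 0.712 at IM3h and 7.74 at IM24h, against 3.33 in controls. Plpp5, Galk2, Abcd3, Car12, Cyb561d2, Hemk1, Nudt2, Pctp, Phyhd1 and Pnpla7 were among the rest.

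Kinases, phosphatases, channels and glycosylation enzymes made up 12 genes. Snrk, an AMPK-related kinase, averaged 3.41 at IM3h and 24.3 at IM24h, against 8.43 in controls. B3gntl1 averaged 2.99 at IM3h and 14.1 at IM24h, against 6.81 in controls. Ano8, of the anoctamin family, averaged 2.69 at IM3h and 12.997 at IM24h, against 5.59 in controls. Snrk had the largest rise of these 3, 2.88-fold. Slc12a9 averaged 0.824 at IM3h and 8.90 at IM24h, against 2.98 in controls. B3gnt8, which extends N-glycans, averaged 0.824 at IM3h and 7.88 at IM24h, against 3.65 in controls, a 4.43-fold fall. Mast3, Pomk, Mapkap1 of the mTORC2 complex, Arrdc4, Guca1a and Nkiras1 were the others.

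The 15 genes without an assigned role were 2610524H06Rik, AI413582, AI987944, Armcx3, Ccdc34, Efcab14, Focad, Gm1966, Lrrc14, Nkapl, Shisa4, Tmem104, Tmem254b, Wdr90 and the antisense transcript Zeb2os. Armcx3 was 8.59-fold higher at IM24h, with 0.558 at IM3h and 10.6 at IM24h, against 1.24 in controls. Efcab14 was 5.95-fold higher, with 0.844 at IM3h and 10.4 at IM24h, against 1.74 in controls. Lrrc14 averaged 4.65 at IM3h and 20.4 at IM24h, against 9.39 in controls, Tmem104 averaged 3.42 at IM3h and 21.2 at IM24h, against 7.01 in controls, and AI413582 averaged 3.89 at IM3h and 17.9 at IM24h, against 8.46 in controls. The rise of Armcx3 was the largest of all member genes after that of Clec10a. Shisa4 averaged 2.97 at IM3h and 16.2 at IM24h, against 5.97 in controls. Zeb2os averaged 2.11 at IM3h and 15.4 at IM24h, against 6.27 in controls, and whether the counting used strand is not given in the sources used here.

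Transcripts of one gene were seldom told apart. Of the 15 genes with more than 1 member transcript (33 transcripts), 13 had both log2 ratios equal within 0.01 across their transcripts. Their levels differed only by a constant factor or, in Tmem254b and Plac9a, not at all. The exceptions were Cast and Zfp386. A kit that reads the transcript end cannot separate isoforms that share that end. RefSeq has more than 1 curated transcript for 103 member genes, and 97 of them had fewer in the tables. No member gene had another transcript in the table of changed genes with a different order. Mixed orders within a gene were rare in the whole table, as in Osbpl1a and Tfdp2, so nothing is read from this. Tmem254b, with 1.77 at IM3h and 13.1 at IM24h, against 6.05 in controls, and Plac9a were each listed as 3 copies of one accession with identical values. Both have near-identical gene copies, so which copy the reads came from is uncertain. The 3 copies of each hold only 1 observation, yet all 3 are included in the counts of member transcripts given here.

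At the edges of the selection, Arrdc4 (2.01-fold lower at IM3h), Glb1l and Ddah2 (2.01-fold each) were the members nearest control at IM3h, and Klhl5, Cops7a and Plpp5 (2.001 to 2.005-fold higher) the nearest at IM24h. Just outside it, Xdh averaged 17.1 at IM3h and 40.04 at IM24h, against 8.54 in controls, followed by Ms4a6c and Ssr1. On the other side, Cnot8 averaged 0.694 at IM3h and 1.70 at IM24h, against 3.43 in controls, and Adra2b averaged 0.881 at IM3h and 3.68 at IM24h, against 7.51 in controls. No transcript of the table lay between these edges, and the 9 left-out names have the members' order and lie among them.

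Cell markers in the tables took different orders, and their part in the members' values was not tested. The lists were made with results of these data known. The members' order was taken by 35.7% of all transcripts in the table of changed genes and 21.9% in the gliosis table. The reverse order, highest at IM3h and lowest at IM24h, was taken by 10.4% and 3.87%. The order control, IM3h, IM24h from lowest to highest was taken by 26.3% and 28.4%. Of 18 epithelial markers, 7 were found and all were highest at IM3h and lowest at IM24h, the mirror image of the members; their summed mean was 566.1 at IM3h and 71.5 at IM24h, against 250.9 in controls. For monocytes and macrophages, 9 of 30 markers were found with a summed mean of 72.5 at IM3h and 338.5 at IM24h, against 39.1 in controls, and 6 of the 9 were above control at 3 h and higher still at 24 h. Clec10a and Csf1r were the 2 that took the members' order. For neutrophils, 5 of 18 markers were found with a summed mean of 17.7 at IM3h and 242.3 at IM24h, against 4.90 in controls, and Ffar2 and Mmp9 took the members' order. Fibroblast and matrix markers were found for 9 of 16 genes, 6 of them in the members' order and 4 as members. All 6 were lower at IM3h than in controls, as that order requires. The summed mean of the 9 was 739.2 at IM3h and 988.9 at IM24h, against 692.7 in controls, and most of it came from 3 genes of other orders, Dcn (248.8 at IM3h and 297.9 at IM24h, against 506.4 in controls), Tnc (211.1 at IM3h and 340.0 at IM24h, against 79.8 in controls) and Thbs1 (226.0 at IM3h and 59.2 at IM24h, against 15.4 in controls). None of 15 neuronal and none of 18 lymphocyte and mast cell markers was found, and of 14 smooth muscle markers only Nexn, so the labelled tissue cannot be checked further against its defining markers. No marker found was listed at 0, and the levels of markers outside the tables are not known here.

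**Figure D4:**
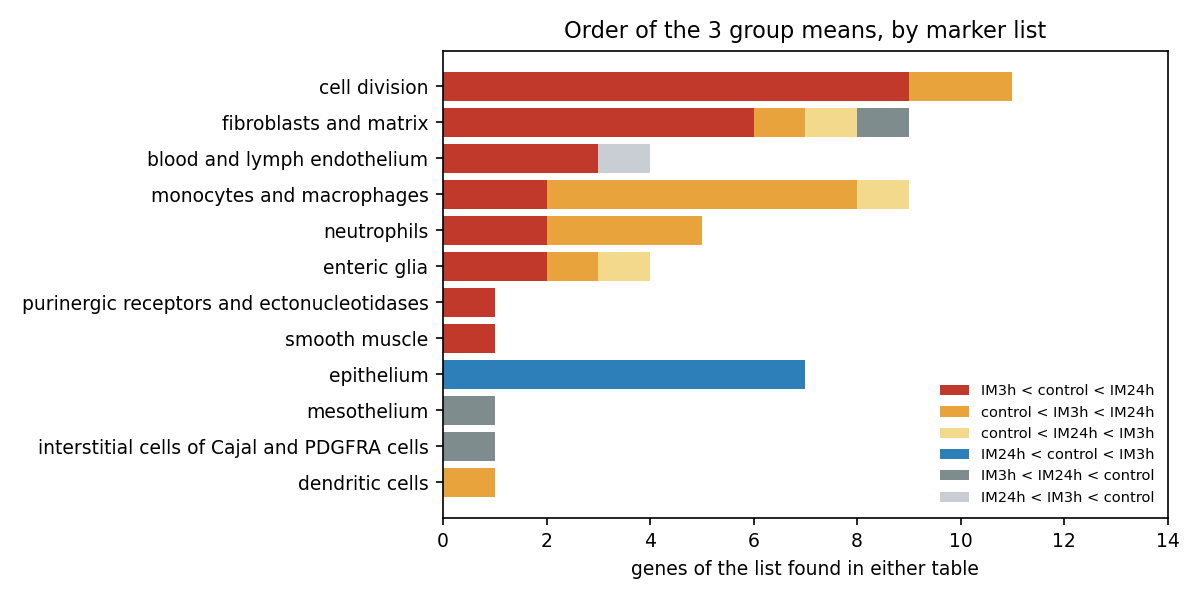
For each marker list, the bar counts the genes found in either table, colored by the order of their group means. Cell division (9 of 11), fibroblasts and matrix (6 of 9) and endothelium (3 of 4) hold mostly the members' order in red. Monocytes and macrophages hold mostly the order control, IM3h, IM24h (6 of 9), and epithelium only the reverse order (7 of 7). The lists were made with results of these data known and hold member genes, so nothing is read from these counts. Of all transcripts, 35.7% in the table of changed genes and 21.9% in the gliosis table took the members' order. The order control, IM3h, IM24h was taken by 26.3% and 28.4%, and the reverse of the members' order by 10.4% and 3.87%.

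The sequence before each gene start was not used in choosing the members. RefSeq promoter windows (GRCm38.p6, 250 bases before to 50 after each start, both strands searched) were found for 121 of 152 member genes (79.6%) and 216 of 292 other genes (74.0%). Less than 80% of the members had a window because entries are missing from the table used, so a check over the whole set is void and the shares describe only the genes found. The letters GCGCATGC, bound by NRF1, a factor of many housekeeping and mitochondrial genes, were present in 15 of the 121 (12.4%), beside 2.78% in the rest of the table and 3.05% of all genes. CCGGAAGT, the core of many ETS factors, was present in 9.09%, beside 1.85% and 4.31%. TATAAA was present in 4.13%, beside 18.1% and 15.7%, and GGGCGG, read by Sp1, in 65.3%, beside 51.9% and 38.2%.

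The other letters searched were CCAAT (48.8%, beside 40.7% in the rest of the table and 41.1% of all genes), CACGTG for the E-box (13.2%, beside 12% and 8.09%), TTTGAA for the cell cycle homology region (18.2%, beside 13.9% and 20.2%), AAGATGGC for YY1 (5.79%, beside 2.78% and 3.19%), GAGGAAGT for PU.1 (4.96%, beside 7.41% and 3.69%), and TTTCCCGC or TTTGGCGC for E2F (3.31%, beside 2.31% and 1.8%). The ETS and PU.1 letters share their last 6 bases and cannot lie on the same bases. The ratio of observed to chance CpG and the GC content were taken as the highest among the windows of a gene. The median ratio over genes was 0.756 in members, beside 0.578 in the rest of the table and 0.415 in all genes. Median GC contents were 60.3%, 59% and 53.3%. Letters likewise counted when any window of a gene held them. Members had 169 windows for 121 genes, the rest 282 for 216, and all genes 32851 for 27025, and this difference was not corrected for. GCGCATGC and CCGGAAGT hold CpG and TATAAA does not, and the part of CpG content in these shares was not tested. A match is only a run of letters, and the listed transcript may start elsewhere than the window.

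The NRF1 and ETS matches are shown for members with large totals that carry them upstream of the start, since these letters were more than 2 times as frequent in member promoters as in either other set. Each line gives 90 bases, 5′ to 3′ on the gene's strand, with the match in capitals. They lie at chr4:137594067-137594156 (Usp48, plus strand), chr19:46395742-46395831 (Actr1a, minus), chr11:115187310-115187399 (Tmem104, plus), chr6:142345602-142345691 (Pyroxd1, plus), chr6:125039758-125039847 (Ing4, plus) and chr15:102350760-102350849 (Aaas, minus). The first 3 carry the NRF1 letters, and the last 3 the ETS letters.
Usp48: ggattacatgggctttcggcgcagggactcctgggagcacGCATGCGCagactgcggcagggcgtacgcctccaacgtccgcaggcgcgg
Actr1a: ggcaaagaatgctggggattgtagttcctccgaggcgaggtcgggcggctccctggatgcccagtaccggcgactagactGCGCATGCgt
Tmem104: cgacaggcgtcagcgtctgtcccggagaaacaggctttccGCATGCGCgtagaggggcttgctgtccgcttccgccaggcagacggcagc
Pyroxd1: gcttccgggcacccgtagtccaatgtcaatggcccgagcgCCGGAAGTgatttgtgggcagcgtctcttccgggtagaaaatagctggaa
Ing4: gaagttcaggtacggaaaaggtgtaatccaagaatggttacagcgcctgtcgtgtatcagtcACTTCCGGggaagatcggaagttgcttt
Aaas: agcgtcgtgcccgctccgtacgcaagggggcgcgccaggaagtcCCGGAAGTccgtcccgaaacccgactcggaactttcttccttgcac

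In Usp48, Tmem104 and Ing4 the match reads on the opposite strand, so the capitals are the reverse complement. One further window is shown for the division genes, of which Ncapd2 carries the E2F letters TTTGGCGC, 8 bases before its start, at chr6:125191587-125191676 (minus strand).
Ncapd2: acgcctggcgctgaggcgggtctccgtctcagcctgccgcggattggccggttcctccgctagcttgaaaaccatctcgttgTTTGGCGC

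The E2F letters were found in 4 member genes, Elof1, Il16, Lyl1 and Ncapd2, of which Ncapd2 alone belongs to the cell division list.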

How the data were processed

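Total RNA from muscularis externa was made into libraries with the QuantSeq 3' mRNA-Seq FWD kit. Per the submitters' processing notes, Partek was used; aligner, genome build and normalization are not given in the sources used here. The authors deposited group means and totals of normalized counts per RefSeq transcript (signal values), for a table of changed genes and a table of gliosis genes. Columns of the authors' own comparisons (ratios, fold changes, p-values, false discovery rates) and a file of gene ontology enrichment scores were not used, and values of single libraries were not analysed here, so depth per library is unknown and no test, SD or interval between libraries was made. Ratios of group means carry no pseudocount.

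Members and lists (cell markers, roles) were chosen with earlier results of these data known. Members are named by role, apart from a few that are not reported here; values are given for the largest totals (10, and up to 5 per role), the 10 largest falls and rises with and without a total of at least 45, genes with several transcripts and the 3 transcripts nearest each edge. All 152 symbols matched the RefSeq gene table. Promoters came from RefSeq, coding sequences from GENCODE M21 (longest per gene, translated; a finger is C, 2 or 4 residues, C, 12 residues, H, 3 to 5 residues, H). Python 3.11.15, pandas 2.3.3, numpy 2.4.6 and matplotlib 3.10.9 were used. Alternatives were pseudocounts, a minimum total, 1 transcript per gene, scaling to the gliosis table, adding that table, and a shorter promoter window.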

Additional observations from a re-analysis of the deposited data

How the results depend on the processing

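No paired analysis was made, since the labels describe no pairing of libraries between groups. Leaving out each replicate was not run, because the means hold no single libraries. Scaling to the gliosis table left 34 members at least 4-fold below control at IM3h, 3 at least 4-fold above it at IM24h, 16 at least 8-fold higher at IM24h than at IM3h, 166 with the larger fall, and log2 medians of -1.63, 0.28 and 2.01 (IM3h over control, IM24h over control, IM24h over IM3h). With a pseudocount of 1 these values were 0, 6, 2, 36, -0.86, 1.03 and 1.94. With a pseudocount of 0.5 they were 1, 13, 13, 52, -0.97, 1.12 and 2.16. A total of at least 90 kept 19 members, with 0, 0, 2, 4, -1.06, 1.17 and 2.21. Leaving out the transcripts with an IM3h mean below 1, an alternative chosen after seeing the data, kept 91 members, with 0, 2, 8, 37, -1.12, 1.21 and 2.45. Adding the gliosis table gave 201 transcripts and medians of -1.15, 1.22 and 2.52, and 1 transcript per gene gave 152 and medians of -1.22, 1.25 and 2.58. The selection fixes the sign of each median under these settings, so an unchanged sign says nothing of stability, and a filter on the IM3h mean removes large falls by its construction. The counts under these settings were made for members only, so no share of the whole table stands beside them. For the promoter windows, the 100 bases before the start gave NRF1 letters in 7.44% of member genes, beside 2.31% in the rest of the table and 1.71% of all genes, and ETS letters in 5.79%, beside 0.926% and 2.35%.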

Other observations

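The gliosis table was not used in choosing the members, and 34 of its 155 transcripts took the same order, though mostly with a shallow fall. Of these, 1 was at least 2-fold lower at IM3h (Col5a2) and 14 at least 2-fold higher at IM24h. Some transcripts are in both tables. Col5a2 is also in the table of changed genes, as one of the names that the selection left out. Collagens and their partners were among them. Col6a1, a chain of the beaded-filament collagen, averaged 45.6 normalized counts at IM3h and 108.6 at IM24h, against 71.5 in controls, and Col5a1 averaged 29.6 at IM3h and 83.7 at IM24h, against 36.1 in controls. Complement genes took the order too. C1ra, the mouse C1r protease, averaged 12.6 at IM3h and 54.8 at IM24h, against 22.0 in controls, and C4b averaged 11.8 at IM3h and 38.0 at IM24h, against 22.5 in controls. Of genes of DNA replication, Prim1, a primase subunit, averaged 0.590 at IM3h and 3.82 at IM24h, against 1.15 in controls, and Rfc3, a clamp loader subunit, averaged 1.23 at IM3h and 6.52 at IM24h, against 1.96 in controls. These genes were picked after their values were seen, and both tables share all 9 libraries.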
